A study of Mus musculus with 4 samples.

Results

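Glycolysis and the response to low oxygen were followed through 34 genes in single-cell libraries of mouse testis fragments kept in organ culture and of testes that were not cultured. The genes were a fixed list of symbols, and each of the 34 was among the 31017 symbols of the count matrices. The list holds 2 glucose transporters, 14 glycolytic enzymes, 6 genes that set the fate of pyruvate and lactate, 10 genes induced in low oxygen, and the subunits Hif1a and Epas1. The rule uses no measured value, although earlier results of the same data were known when the list was drawn up.

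The study has 4 libraries, 1 for each group. All came from C57BL/6 mice that carry the Acr-Gfp transgene, in which the promoter of the germ cell gene Acr drives a green fluorescent protein. In the 2-day culture and the 7-day culture, testes removed 7 days postpartum (dpp) were cut into fragments and grown on half-submerged agarose in α-MEM with AlbuMAX, a lipid-rich bovine albumin, under a ceiling made of the silicone PDMS. The groups named 9 dpp and 14 dpp are testes taken at those ages, so that age at removal plus days of culture is 9 in the first pair (2-day culture and 9 dpp) and 14 in the second (7-day culture and 14 dpp). Where a gene is given with 4 values, they are in the order 2-day culture, 9 dpp, 7-day culture, 14 dpp. The labels give no number of animals, do not say whether animals were pooled, and name no batch. Their tissue label is testis, while the text on library preparation, which is the same for all samples, speaks of female gonads. With 1 library per group no test between groups was possible, and culture cannot be told apart from the library.

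Glycolysis splits glucose into pyruvate in the cytosol. In the testis it is shared out between cells. Sertoli cells, the nurse cells of the seminiferous tubule, take up glucose and release lactate, and meiotic germ cells take that lactate up as fuel and switch to isozymes that are found in few other tissues. In low oxygen the prolyl hydroxylases encoded by Egln1 and Egln3 stop marking the HIF alpha subunits for breakdown. The stable subunits then enter the nucleus with their partner ARNT, bind a short DNA element and raise the transcription of glucose transporters, glycolytic enzymes, Pdk1, Vegfa, Adm and others. HIF is controlled mainly at the protein level, which RNA counts do not show.

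The libraries held between 5149 and 7710 barcodes and between 34491701 and 60829941 UMIs (unique molecular identifiers, each standing for 1 captured RNA molecule). The median depth of the cells kept ranged from 3606 UMIs in the 2-day culture to 8545 at 9 dpp. Cells were put into classes by UMIs of marker genes. Each library gave at least 2524 germ-like cells, 503 Sertoli-like cells, 59 Leydig-like cells (the steroid-making cells between the tubules) and 1097 stromal-like cells (interstitial stroma and peritubular myoid cells together). The markers of a class summed to between 4969 and 10629 CPM in its own cells for germ-like, 16986 and 25654 for Sertoli-like, 7219 and 14131 for Leydig-like and 14257 and 18663 for stromal-like cells. Library pairs shared between 35 and 86 barcodes. Levels are given in CPM, the UMIs of a gene per 1000000 UMIs of the cells summed. The reads come from the 3′ end of RNA, so gene length does not enter. Intervals are exact Poisson intervals at 95%, which cover counting error only. A gene is called higher or lower where log2(CPM + 1) differed by at least 1, a factor of 2, among genes that reached 50 UMIs in those cells when the libraries were added up.

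Without culture, 9 of the 34 genes led in 1 of the cell classes (26.5%), a share near the 26.3% of all genes. A gene was counted as leading in a class where it was at least 2-fold above each of the other classes at both 9 dpp and 14 dpp. Sertoli-like cells led for 5 of 34 genes, against 5.25% of all genes: Eno1 and Pkm, the enolase and pyruvate kinase of lower glycolysis, Ldhb, a lactate dehydrogenase subunit, the oxygen sensor Egln1, and Epas1. Germ-like cells led for Egln3 and Ankrd37, a small ankyrin protein induced in low oxygen, against 14.7% of all genes. Leydig-like cells led for Slc16a1, the monocarboxylate transporter MCT1, against 1.67%, and stromal-like cells led for P4ha2, a collagen prolyl hydroxylase, against 4.62%. The other 25 genes led in no class.

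**Figure D1:**
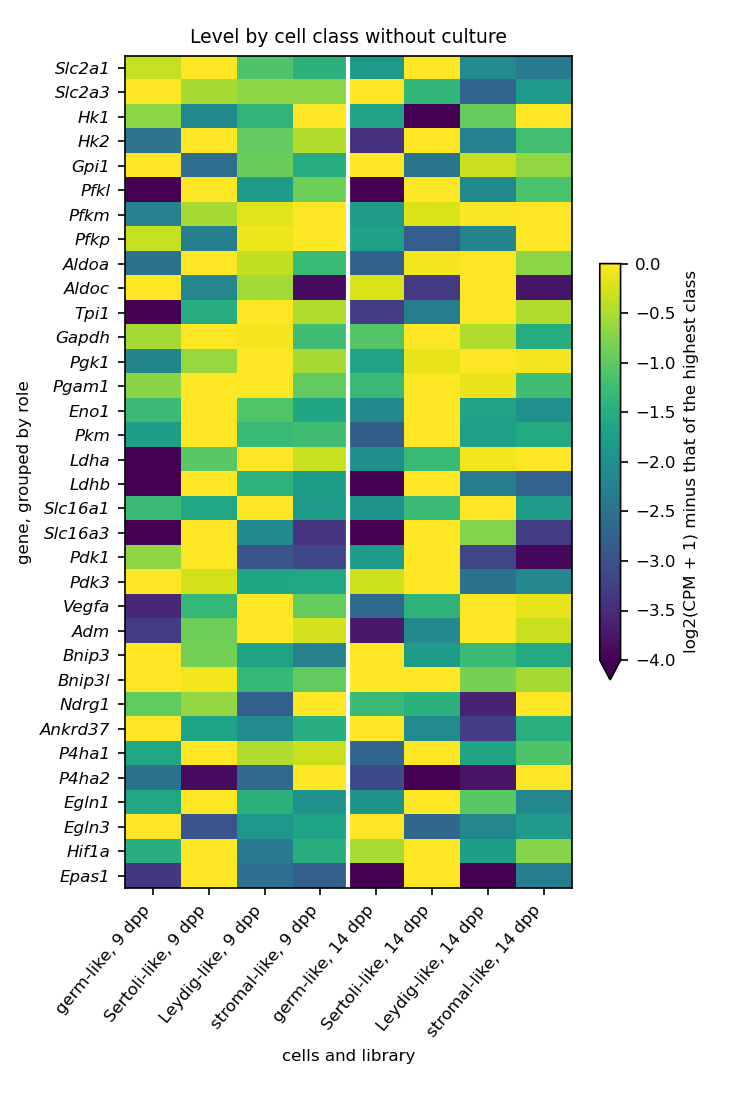
Level of the 34 genes (rows, grouped by role) in the 4 cell classes at 9 dpp and 14 dpp (columns). The colour gives log2(CPM + 1) minus that of the highest class for the gene in the same library, so that 0 marks the highest class. Ldhb, Epas1 and Egln1 are brightest in Sertoli-like cells, P4ha2 in stromal-like cells and Slc16a1 in Leydig-like cells at both ages.

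Ldhb differed widely between classes. In Sertoli-like cells it reached 1819 CPM at 9 dpp and 2957 CPM at 14 dpp, against 24.2 and 37.1 CPM in germ-like cells. Slc16a3, the transporter MCT4 that exports lactate, stood at 242 and 163 CPM in Sertoli-like cells and at 4.30 and 2.05 CPM in germ-like cells. Both genes were thus far lower in germ-like than in Sertoli-like cells at these ages. Sertoli markers summed to between 60.6 and 243 CPM in germ-like cells, against between 16986 and 25654 CPM in Sertoli-like cells. The part of Sertoli RNA in the low germ-like values of these genes was not tested.

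In the whole libraries, most of the genes in the cultures were within a factor of 2 of the testis of matched age. In the 2-day culture against 9 dpp, 2 of 34 genes were called higher (5.88%, against 4.19% of all genes tested) and 2 lower (5.88%, against 3.41%). In the 7-day culture against 14 dpp, 1 was higher (2.94%, against 3.6%) and 2 were lower (5.88%, against 2.67%). These shares are near those of all genes. The median log2 ratio of the 34 genes was -0.12 in the first pair and -0.02 in the second, beside -0.12 and 0.00 for all genes. In a whole library, fewer cells of a type and less RNA per cell cannot be told apart.

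Hk2 and Adm passed the factor of 2 in both pairs, in opposite directions. Hk2 (chr6:82725025-82774454, minus strand, GRCm38) encodes hexokinase 2, which traps glucose in the cell as glucose 6-phosphate. It had 23.3 and 79.0 CPM in the culture and the uncultured testis of the first pair, and 31.6 and 87.7 CPM in those of the second. Both cultures lay below both uncultured testes, by 3.39-fold (counting interval 3.14 to 3.67) in the first pair and 2.77-fold (2.60 to 2.96) in the second. Adm (chr7:110627661-110629820, plus strand) encodes adrenomedullin, a secreted vasodilator peptide and a classical HIF target. It had 21.1 and 3.49 CPM in the first pair and 9.43 and 2.85 CPM in the second. Here both cultures lay above both uncultured testes, by 6.04-fold (5.15 to 7.10) and 3.31-fold (2.74 to 4.02).

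The other calls in whole libraries were each made in 1 pair. Ldha, the lactate dehydrogenase subunit that favours lactate formation, had 320 CPM in the 2-day culture and stood between 131 and 153 CPM in the other 3 libraries. With each cell class given the same weight in both libraries its log2 ratio was 0.51, against 1.08 as measured. Slc16a3 was 2.13-fold lower in the 2-day culture than at 9 dpp (32.7 against 69.5 CPM), and it no longer reached the factor of 2 under 4 of 10 alternatives, equal class weights among them. Epas1 (HIF-2 alpha) was 2.13-fold lower in the 7-day culture than at 14 dpp (10.2 against 21.7 CPM), and did not reach it under 5 of 10 alternatives, equal class weights among them. The first pair lay just short of a call, at 8.88 against 18.3 CPM, 2.05-fold (1.80 to 2.35) or -0.96 on the log2 scale of CPM + 1. Hif1a was not called in whole libraries, with 80.9, 51.0, 62.1 and 48.4 CPM.

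To set these genes beside the DNA element that HIF binds, the 250 bases upstream of each transcription start were searched for its core, the letters ACGTG or GCGTG on either strand. RefSeq (GRCm38.p6) had entries for 30 of the 34 genes, with 43 starts. The genes not matched were Slc2a3, Bnip3l, Ndrg1 and Epas1. Some starts, among them those of Adm, Hif1a, Slc16a1 and Vegfa, did not match the opening of a transcript in the GENCODE annotation. Windows of starts that lie close together, as in Aldoa and Eno1, overlap and can count the same site again. At least 1 match lay in 35 of the 43 windows (81.4%), against 38.6% of 32851 windows of all genes. By gene, 28 of 30 (93.3%) held one upstream of at least 1 start, against 41.5% of 27025. The letters contain a CG pair, and the 43 windows were rich in CG pairs, with a median of 14 against 6 in all windows. Among windows with at least 14 CG pairs, 22 of 24 from the listed genes (91.7%) and 67.3% of all genes held a match. CACGTG reads ACGTG on both strands and counts as a match on each.

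The upstream windows of 4 genes are shown, 5′ to 3′ on the strand of the gene, picked by the direction in which the gene moved. Hk2 was lower in culture in both pairs. Slc16a3 was lower in whole libraries of the first pair and in Leydig-like cells of both pairs, but not in Sertoli-like cells of the second. Adm was higher in whole libraries of both pairs, and Pdk1 was higher in stromal-like cells. Capitals mark the matches. CACGT and CACGC are ACGTG and GCGTG read on the opposite strand.
Hk2, chr6:82774455-82774704, minus strand: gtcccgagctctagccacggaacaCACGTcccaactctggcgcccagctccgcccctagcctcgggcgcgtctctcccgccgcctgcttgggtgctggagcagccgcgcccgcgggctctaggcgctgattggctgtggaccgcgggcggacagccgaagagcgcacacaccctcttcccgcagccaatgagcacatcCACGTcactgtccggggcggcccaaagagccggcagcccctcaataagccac
Slc16a3, chr11:120948817-120949066, plus strand: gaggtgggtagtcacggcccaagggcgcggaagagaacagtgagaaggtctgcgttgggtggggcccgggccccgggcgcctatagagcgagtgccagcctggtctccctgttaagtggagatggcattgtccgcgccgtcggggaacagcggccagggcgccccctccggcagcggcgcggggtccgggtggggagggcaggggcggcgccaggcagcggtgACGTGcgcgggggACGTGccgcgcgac
Adm, chr7:110627407-110627656, plus strand: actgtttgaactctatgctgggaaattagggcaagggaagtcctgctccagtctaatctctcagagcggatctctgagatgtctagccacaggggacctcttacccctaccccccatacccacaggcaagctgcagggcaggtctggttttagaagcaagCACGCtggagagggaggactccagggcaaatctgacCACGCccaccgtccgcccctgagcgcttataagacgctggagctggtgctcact
Pdk1, chr2:71872974-71873223, plus strand: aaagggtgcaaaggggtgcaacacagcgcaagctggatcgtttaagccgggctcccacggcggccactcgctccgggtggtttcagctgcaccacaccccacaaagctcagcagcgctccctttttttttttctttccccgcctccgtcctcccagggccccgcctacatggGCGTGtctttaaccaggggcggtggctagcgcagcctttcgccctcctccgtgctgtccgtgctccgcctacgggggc
Hk2 held 2 matches to ACGTG, 226 and 52 bases before the start, and Slc16a3 held 2, 27 and 14 bases before it. Adm held 2 matches to GCGTG, 90 and 54 bases before the start, and Pdk1 held 1, 78 bases before it. A match in each of these genes does not separate the directions, since 28 of the 30 genes with an entry held one. The forms did not divide by direction among other genes. Hif1a, called higher in stromal-like cells, held ACGTG only, and Aldoc, called lower there, held GCGTG only. Pdk1 has a second start in the table, whose window (chr2:71874654-71874903) held no match and is not shown. The Slc16a3 window lies inside the gene as GENCODE annotates it (chr11:120948480-120960868), and its last bases overlap an exon of a longer transcript. A match is a description of the sequence and says nothing about binding.

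Within cell classes, Hk2 was lower in culture in each of the 4 classes and both pairs. In Sertoli-like cells it had 50.3 CPM (44.9 to 56.1) and 162 CPM (155 to 169) in the first pair, and 101 CPM (92.7 to 109) and 263 CPM (252 to 274) in the second. Stromal-like cells had 22.3, 117, 40.7 and 113 CPM, germ-like cells had 10.9, 28.3, 7.28 and 23.3, and Leydig-like cells had 13.5, 82.4, 15.2 and 55.5. No cultured value of a class reached an uncultured value of the same class, and their counting intervals did not overlap. The difference was smallest in germ-like cells of the first pair, at 2.59-fold (2.15 to 3.13), and greatest in Leydig-like cells of the first pair, at 6.11-fold (3.08 to 13.8), where the culture had 9 UMIs. Hk1, the other hexokinase on the list, was not lower by a factor of 2 in any class of either pair.

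**Figure D2:**
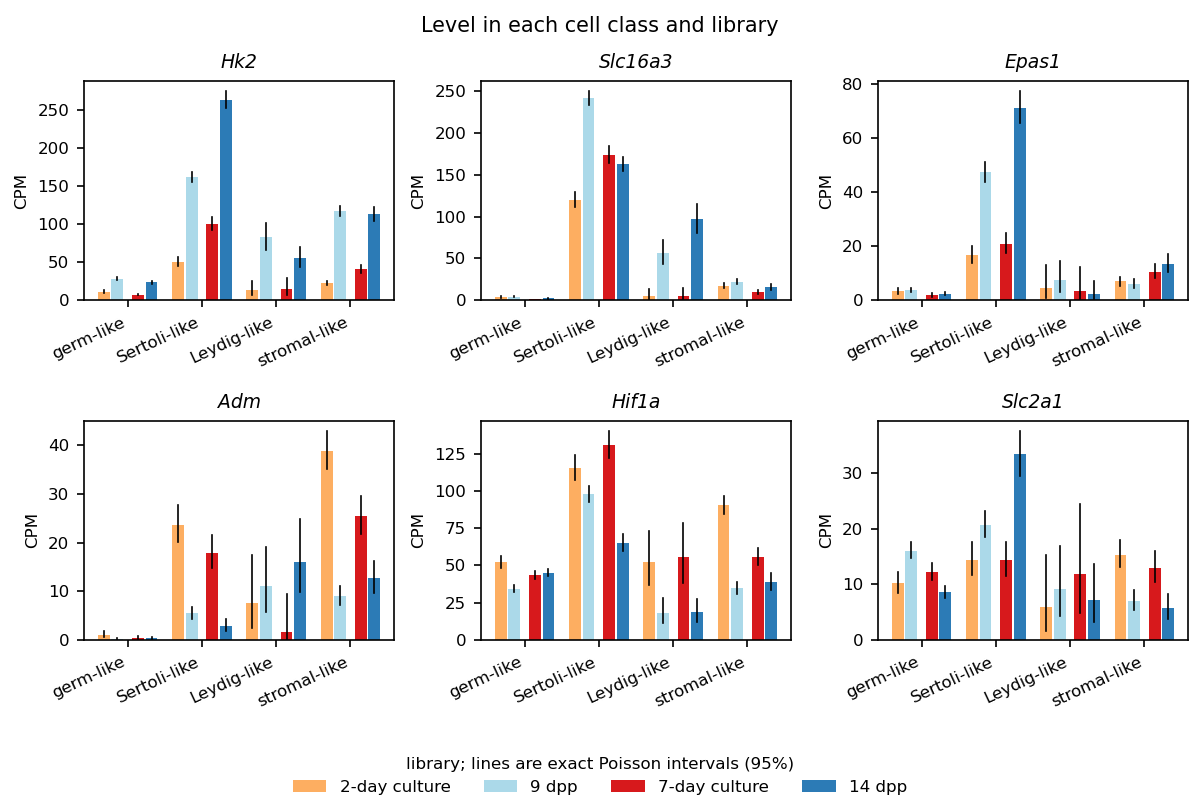
Level in CPM (vertical axis, linear from 0) of 6 genes in the 4 cell classes (horizontal axis), with 1 bar for each library and exact Poisson intervals at 95% as lines. Hk2 is lower in both cultures in every class shown, Adm is higher in cultured Sertoli-like and stromal-like cells, and Slc2a1 is lower in cultured Sertoli-like cells but higher in cultured stromal-like cells.

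Over both pairs Sertoli-like cells held the most calls, although in the first pair alone stromal-like and Leydig-like cells held more. In the 2-day culture against 9 dpp, 1 of 32 genes tested was higher (3.13%, against 6.47% of all genes) and 4 were lower (12.5%, against 5.94%). In the 7-day culture against 14 dpp, 3 were higher (9.38%, against 10.5%) and 7 were lower (21.9%, against 6.5%). Pfkp and Egln3 had too few UMIs there. The genes called lower in the 7-day culture were Slc2a1, Hk2, Pkm, Slc16a1, Pdk3, P4ha1 and Epas1. They are single genes and do not stand for whole steps, since Hk1, the other hexokinase, was called higher. The median log2 ratio was 0.45 over the 8 genes tested from hexokinase to Tpi1, beside 0.03 for all genes. It was -0.61 over 5 genes of lower glycolysis and -0.55 over 6 genes of pyruvate and lactate fate.

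Of the genes called lower, Slc16a1 showed the greatest difference. It had 15.7, 28, 12.8 and 56.6 CPM, which put the 7-day culture 4.41-fold (3.46 to 5.68) below 14 dpp. Pkm had 494, 851, 522 and 1158 CPM. Pdk3, a kinase that inhibits pyruvate dehydrogenase, had 75.8, 134, 68.4 and 191 CPM. In these genes the uncultured level was higher at 14 dpp than at 9 dpp, while the 2 cultures lay close together and below both. The same order held for P4ha1, a collagen prolyl hydroxylase (32.2, 48.8, 36.4 and 93.3 CPM), and for Epas1 (16.6, 47.4, 20.9 and 71.4 CPM), which was called lower in both pairs.

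Slc2a1 and Slc2a3 encode the glucose transporters GLUT1 and GLUT3. In Sertoli-like cells Slc2a1 had 14.5, 20.8, 14.3 and 33.4 CPM, and the 7-day culture was 2.34-fold (1.83 to 3.01) below 14 dpp. Slc2a3 had 2.96 CPM in the 2-day culture, from 19 UMIs, and between 7.68 and 9.87 CPM in the other libraries. It was called lower in the first pair, and that call was lost with cells weighted equally and with 10 added to CPM. Slc16a3 was 2.01-fold (1.86 to 2.18) lower in the 2-day culture, at 120 against 242 CPM, and did not differ so in the second pair, at 174 against 163 CPM. Its call in the first pair lay at the threshold and was lost under 6 of 12 alternatives.

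The genes called higher in cultured Sertoli-like cells were Adm in both pairs, and Hk1 and Bnip3 in the second. Adm had 23.7, 5.47, 17.9 and 2.93 CPM, which made it 4.32-fold (3.27 to 5.76) and 6.13-fold (3.91 to 9.97) higher. Bnip3, a mitochondrial protein that promotes removal of mitochondria in low oxygen, had 132, 109, 88.5 and 39.9 CPM. Its call was lost with cells weighted equally and with 10 added to CPM. Hk1 had 9.65, 7.37, 8.06 and 1.46 CPM, the last from 12 UMIs. For Hk1 and Bnip3 it was thus the 14 dpp library that stood apart, below the other 3. Hif1a itself had 115, 97.7, 131 and 65.0 CPM. In the second pair it was 2.01-fold (1.80 to 2.25) higher and just short of a call, with a log2 ratio of 0.9956 on the CPM + 1 scale.

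The Sertoli-like cells of the libraries also differed in depth and state. Their median depth was 3022, 13608, 8826 and 8642 UMIs in the 4 libraries, and their median mitochondrial share was 4.40%, 5.72%, 6.07% and 8.79%. The summed level of the 8 Sertoli markers was 16986 and 18556 CPM in the cultures and 24005 and 25654 CPM without culture, and that of Amh, the hormone made by immature Sertoli cells, was 36.3, 773, 142 and 188 CPM. Germ markers summed to between 179 and 339 CPM in them. With only cells of at least 3000 UMIs kept, a setting added after the data were seen, the same 5 and 10 genes were past the factor of 2 in the pairs. The part of the other differences in the results was not tested.

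In stromal-like cells more of the genes were called higher than lower in the first pair, and equal numbers in the second. In the 2-day culture against 9 dpp, 5 of 34 genes were higher (14.7%, against 5.83% of all genes) and 2 were lower (5.88%, against 7.18%). In the 7-day culture against 14 dpp, 2 were higher (5.88%, against 5.1%) and 2 lower (5.88%, against 4.54%). The genes called higher in the 2-day culture were Slc2a1, Gapdh, Pdk1, Adm and Hif1a. The median log2 ratio over all 34 genes was 0.18 in the first pair, beside -0.17 for all genes tested, and -0.17 in the second, beside -0.01.

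Adm was the highest of these relative to 9 dpp. It had 38.9 CPM (35.1 to 42.9) and 8.95 CPM (7.12 to 11.1) in the first pair, and 25.4 CPM (21.7 to 29.5) and 12.6 CPM (9.70 to 16.2) in the second. The first pair differed 4.34-fold (3.42 to 5.58), and the second did not reach the factor of 2 on the log2(CPM + 1) scale. Hif1a (chr12:73901375-73947530, plus strand) had 90.5, 34.5, 55.6 and 39.0 CPM, a 2.62-fold (2.31 to 2.99) difference in the first pair. Both genes were highest in the 2-day culture and stayed above the uncultured values in the 7-day culture.

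Pdk1, a kinase that HIF induces and that inhibits pyruvate dehydrogenase, had 11.9, 4.80, 9.42 and 3.88 CPM in stromal-like cells. It was called higher in both pairs, by 2.49-fold (1.75 to 3.60) and 2.43-fold (1.44 to 4.30). Slc2a1 followed the same order with 15.4, 7.09, 13 and 5.71 CPM, and was 2.17-fold (1.61 to 2.94) and 2.28-fold (1.47 to 3.62) higher. Both have low counts, down to 19 UMIs for Pdk1 and 28 for Slc2a1 at 14 dpp, and with a stricter marker rule for the class the Slc2a1 ratio no longer reached the factor of 2 in either pair. Gapdh, the enzyme that yields the first NADH of glycolysis, had 890 CPM in the 2-day culture and between 425 and 441 CPM in the other libraries. Its log2 ratio of 1.01 lay at the threshold and was 0.89 with cells weighted equally. Ldha followed with 657 CPM in the 2-day culture against 333 to 367 CPM in the others, just under the factor of 2 (log2 ratio 0.84).

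The genes called lower in stromal-like cells were Hk2 in both pairs, Pfkm in the first and Aldoc in the second. Pfkm, the muscle-type phosphofructokinase, had 16.1, 38.5, 25.1 and 27.1 CPM. Aldoc, the brain-type aldolase, had 4 UMIs in the 7-day culture and 13 at 14 dpp, so its ratio of 4.44 has a counting interval of 1.37 to 18.7. The makeup of this class moved with the libraries: the myoid markers Acta2, Myh11 and Actg2 summed to 2423 and 4034 CPM in the cultures and to 6927 and 8956 CPM without culture. Dcn, Pdgfra, Lum and Tcf21, markers of interstitial stroma, summed to 5329, 4471, 6224 and 4835 CPM. The part of this makeup in the stromal-like results was not tested.

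Leydig-like cells were few, and 23 of the 34 genes had enough UMIs. In the 2-day culture against 9 dpp, 2 were higher (8.70%, against 5.86% of all genes) and 4 were lower (17.4%, against 10.3%). In the second pair 1 was higher (4.35%, against 7.55%) and 3 were lower (13%, against 7.78%). Slc16a3 had the greatest ratio among the 34 genes in any of the 4 classes. Its counts were 3 UMIs in each culture, 61 UMIs at 9 dpp and 120 at 14 dpp, or 4.49, 55.9, 5.08 and 96.5 CPM. The ratios were 12.4 (counting interval 4.06 to 61.9) and 19.0 (6.35 to 93.4).

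Hif1a was higher in cultured Leydig-like cells in both pairs, with 52.4, 18.3, 55.9 and 18.5 CPM, by 2.86-fold (1.61 to 5.23) and 3.02-fold (1.72 to 5.39). Its 2 cultured values agree within counting error, as do its 2 uncultured values. Pfkl, the liver-type phosphofructokinase, was higher in the first pair (59.9 against 25.6 CPM), and Pfkm (13.5 against 33.9) and Ldhb (300 against 681) were lower. Aldoc was lower in the second pair (18.6 against 48.3 CPM). Adm did not have enough UMIs to be tested here, with 5 and 1 in the cultures and 12 and 20 without culture. Stromal markers summed to between 1291 and 2155 CPM in Leydig-like cells and Sertoli markers to between 361 and 669 CPM, and their part in these values was not tested.

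Slc2a1 was the gene called in opposite directions in 2 classes of the same pair. At 7 days of culture it was lower in Sertoli-like cells and higher in stromal-like cells, so that its level was 14.3 CPM in the former and 13 CPM in the latter, while at 14 dpp they had 33.4 and 5.71 CPM.

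**Figure D3:**
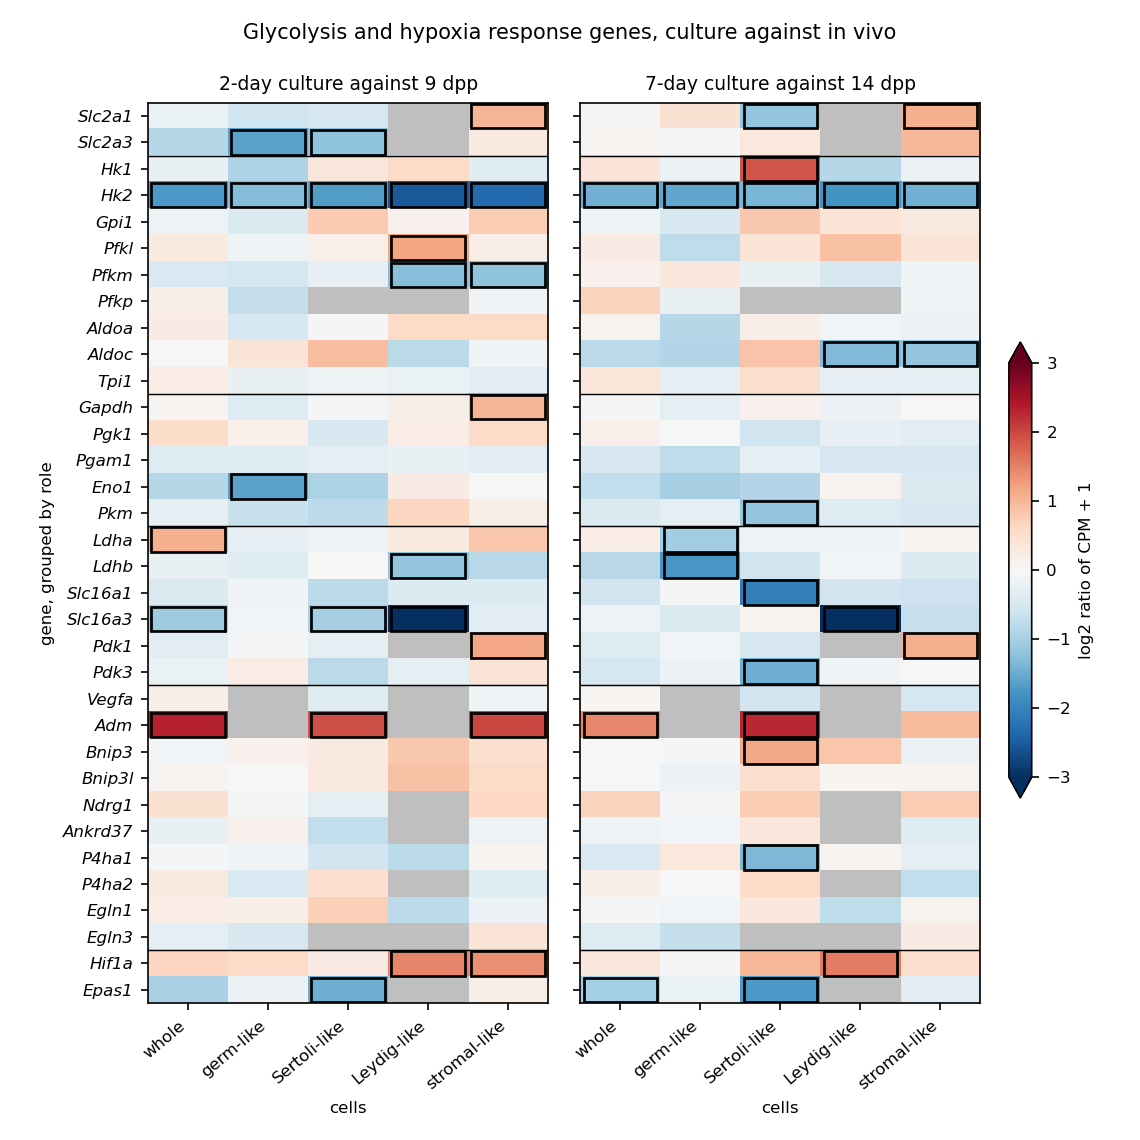
Log2 ratio of CPM + 1, culture against the uncultured testis of matched age, for the 34 genes (rows, grouped by role) in whole libraries and 4 classes (columns), with 1 panel for each pair. Red is higher and blue lower in culture, black frames mark a difference of at least 2-fold, and grey marks genes with fewer than 50 UMIs. Hk2 is framed in blue in all 10 columns, and most other frames fall in somatic classes.

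In germ-like cells, none of 32 genes was called higher in either pair, against 1.32% and 0.755% of all genes. Lower genes numbered 3 in each pair (9.38%, against 3.09% and 2.24%). They were Slc2a3, Hk2 and Eno1 in the first pair and Hk2, Ldha and Ldhb in the second. Slc2a3 had 3.39, 12.3, 20.7 and 21.1 CPM. Eno1 had 58.5, 181, 39.2 and 79.1 CPM, Ldha had 15.3, 18.4, 39.6 and 82.4 CPM, and Ldhb had 18.5, 24.2, 10.4 and 37.1 CPM. Eno1 in the second pair, 2.02-fold (1.86 to 2.19) lower, was just short of a call. The Ldha call lay near the threshold (log2 ratio -1.04) and was lost under 4 of 12 alternatives. Sertoli markers summed to 130, 183, 60.6 and 243 CPM in germ-like cells, lower in each culture, and their part in the germ-like calls was not tested. Germ cells pass through several stages between 9 and 14 dpp, and the libraries hold different shares of each, so the stages were taken apart.

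Germ-like cells were set to a stage by UMIs of stage markers, and a stage was used in a library with at least 50 cells. Spermatogonia are the mitotic germ cells, divided here into undifferentiated cells, which include the stem cells, and differentiating cells. Leptotene, zygotene and pachytene are successive steps of meiotic prophase. Undifferentiated spermatogonia numbered 92 in the 7-day culture, and 261 and 181 in the younger and older uncultured testis. Pachytene cells numbered 232 in the 7-day culture and 185 at 14 dpp, and differentiating spermatogonia between 401 and 582 in each of the 4 libraries.

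Undifferentiated spermatogonia carried more RNA of many glycolytic genes than differentiating ones. At 9 dpp 10 of 29 genes tested were at least 2-fold higher (34.5%, against 9.8% of all genes) and none was lower (against 9.35%). At 14 dpp 9 of 29 were higher (31.0%, against 9.54%) and none was lower (against 10.2%). In the 7-day culture 11 of 24 were higher (45.8%, against 10.8%) and 1 lower (4.17%, against 15.5%). Slc2a1, Aldoc, Eno1, Pkm and Pdk1 were higher in each of these 3 libraries.

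Pdk1 had the greatest ratio. It stood at 117 CPM in undifferentiated and 3.95 CPM in differentiating spermatogonia of the 7-day culture, at 92.1 and 8.86 CPM at 9 dpp, and at 92.9 and 6.81 CPM at 14 dpp. Pkm had 547 against 82.2 CPM, 542 against 134 CPM and 495 against 113 CPM in the same libraries. Eno1 had 192 against 17.8, 308 against 106 and 200 against 62.7 CPM. Cells early in the lineage thus had the higher level of each gene with and without culture. Pgk1 was the gene that was lower, in the 7-day culture (31.7 against 74.3 CPM). Sertoli markers summed to between 41.8 and 158 CPM in undifferentiated spermatogonia and to between 55 and 207 CPM in differentiating ones, and in each of the 3 libraries they were lower in the undifferentiated cells.

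Pachytene cells differed from differentiating spermatogonia in the other direction for most genes. At 14 dpp 15 of 25 genes were at least 2-fold lower (60.0%, against 33.8% of all genes) and 4 were higher (16%, against 18.7%). In the 7-day culture 12 of 23 were lower (52.2%, against 33.2%) and 4 higher (17.4%, against 18.2%). The 4 genes higher in pachytene cells were the same in both libraries: Slc2a3, Pfkm, Tpi1 (triosephosphate isomerase) and Ldha.

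Ldha had 581 CPM (558 to 605) in pachytene cells at 14 dpp and 7.59 CPM in differentiating spermatogonia, and 198 CPM (184 to 214) against 3.21 CPM in the 7-day culture. Slc2a3 had 127 against 7.4 CPM at 14 dpp and 89.3 against 5.18 CPM in the culture, and Tpi1 had 171 against 16.5 CPM and 109 against 17 CPM. Gapdh moved the other way, with 119 against 695 CPM at 14 dpp and 68.9 against 746 CPM in the culture. Also lower in both libraries were Gpi1, Aldoa, Aldoc, Pgk1, Pgam1, Pdk3, Bnip3, Bnip3l, Ndrg1 and Hif1a. Pgk1 and Pdk3 lie on the X chromosome, which is silenced in pachytene spermatocytes of males. Hif1a had 11.3 CPM at this stage at 14 dpp against 57.2 CPM in differentiating spermatogonia.

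Of the testis-specific isozymes, Ldhc and Pdha2 were high in pachytene cells. Ldhc, the lactate dehydrogenase of spermatocytes and sperm, had 3776 CPM in pachytene cells of the 14 dpp testis against 5.65 CPM in its differentiating spermatogonia, and 1221 against 1.48 CPM in those of the 7-day culture. In whole libraries it had 0.561 and 1.22 CPM in the first pair and 128 and 291 CPM in the second. Pdha2, the testis form of the pyruvate dehydrogenase alpha subunit, had 617 against 24.7 CPM in the same stages at 14 dpp and 549 against 28.6 CPM in the culture, and 16.3, 19.1, 85.4 and 68.5 CPM in whole libraries. Pgk2, Gapdhs, Aldoart1, Aldoart2 and Eno4, most of which serve spermatids and sperm, each had at most 3.04 CPM in any whole library, and in pachytene cells at 14 dpp the highest of them was Pgk2, at 12.5 CPM. Ldha and Ldhc are close copies that lie side by side, and how the counting treated reads that fit both is not given in the sources used here.

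**Figure D4:**
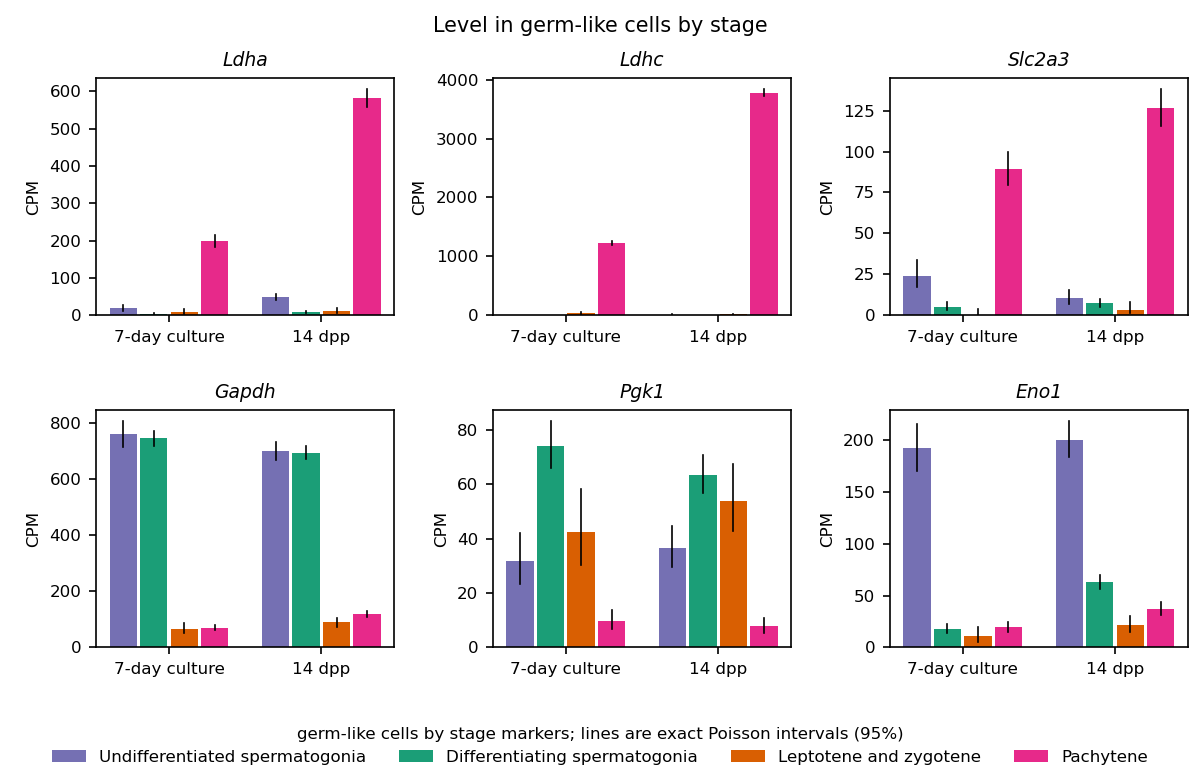
Level in CPM (vertical axis, linear from 0) of 6 genes in germ-like cells of 4 stages, in the 7-day culture and at 14 dpp, with exact Poisson intervals at 95% as lines. Ldha, Ldhc and Slc2a3 are highest in pachytene cells, Gapdh and Pgk1 are lower there than in differentiating spermatogonia, and Eno1 is highest in undifferentiated spermatogonia. Ldha and Ldhc of pachytene cells are lower in the culture than at 14 dpp.

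Culture and the uncultured testis were also compared within a stage, although cells with the same stage label can differ in progress and depth. Pachytene cells had a median of 12810 UMIs in the 7-day culture and 17524 at 14 dpp. How far the cells had advanced within a stage was not tested. In pachytene cells of the 7-day culture against 14 dpp, none of 19 genes was higher (against 2.54% of all genes) and Ldha and Ldhb were lower (10.5%, against 5.19%). The Ldha difference was 2.93-fold (2.69 to 3.19), and that of Ldhc, which is not among the 34, was 3.09-fold (2.99 to 3.20). The lower Ldha of cultured germ-like cells was thus also measured within the pachytene stage. Sertoli markers summed to 74.9 CPM in these cells in the culture and to 283 CPM at 14 dpp, and their part in the Ldha and Ldhb values was not tested.

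In differentiating spermatogonia, 7 of 26 genes were lower in the 7-day culture (26.9%, against 3.58%) and none was higher (against 0.969%). They were Hk2, Aldoa, Aldoc, Eno1, Ldha, Ldhb and Egln3. In the 2-day culture against 9 dpp, 3 of 26 were lower (11.5%, against 2.31%) and none was higher (against 0.791%), namely Slc2a3, Hk2 and Eno1. Eno1 had 48.2 against 106 CPM in the first pair and 17.8 against 62.7 CPM in the second, and Hk2 had 12 against 26.8 and 5.43 against 28.4 CPM. Eno1 and Hk2 were therefore lower in culture at this stage in both pairs. Ldhb had 5.18 against 29.0 CPM in the second pair. Sertoli markers, whose class has more Eno1, Hk2 and Ldhb, summed to 121 and 207 CPM in these cells in the first pair. In the second they summed to 55 and 200.3 CPM. The part of Sertoli RNA in the calls of these 3 genes was not tested.

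In undifferentiated spermatogonia of the second pair, Slc2a3 was higher (3.85% of 26 genes, against 0.609%) and Ldha lower (3.85%, against 1.27%). Leptotene and zygotene cells had 13 genes with enough UMIs, none higher (against 1.08%) and 3 lower (23.1%, against 2.28%): Aldoa, Pgam1 and Ldhb. Ldhb was called lower in the culture in 3 of the 4 stages and was 1.78-fold (1.15 to 2.82) lower in undifferentiated spermatogonia. It had 7.65 against 91 CPM in leptotene and zygotene cells. Sertoli markers, whose own class has the highest Ldhb, summed to 49.2 CPM in those cultured cells and to 584 CPM at 14 dpp. Their part in the Ldhb, Aldoa and Pgam1 results was not tested.

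Between the ages, whole uncultured testes gave no call among the 34 genes. Values at 14 dpp and 9 dpp in whole libraries were within a factor of 2 for all 34 genes (0 higher, against 4.09% of all genes, and 0 lower, against 1.97%). Within classes some differed more, such as Ldha in germ-like cells (18.4 CPM at 9 dpp and 82.4 CPM at 14 dpp) and Hk1 and Bnip3 in Sertoli-like cells, given above. Between the 7-day and the 2-day culture 1 gene was higher (2.94%, against 4.52%) and 3 were lower (8.82%, against 2.37%). The higher gene was Slc2a3, at 16.2 against 5.14 CPM, and the lower ones were Aldoc (15 against 32.0), Ldha (153 against 320) and Adm (9.43 against 21.1). These comparisons use the same libraries as the pairs and are given beside them as values only.

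The remaining members had no call outside the germ cell stages. Gpi1, Pfkp, Aldoa, Tpi1, Pgk1 and Pgam1 of glycolysis and Vegfa, Bnip3l, Egln1, Egln3, Ndrg1, Ankrd37 and P4ha2 of the low-oxygen response were called in no whole library and in none of the classes in which they had enough UMIs. Pfkp and Egln3 were not tested in Sertoli-like cells, Vegfa in germ-like cells, and Pfkp, Vegfa, Egln3, Ndrg1, Ankrd37 and P4ha2 in Leydig-like cells. Within germ cell stages, Aldoa, Pgam1 and Egln3 were among the genes called lower. Vegfa, the angiogenic growth factor and a standard HIF target, had 3.83, 3.28, 1.89 and 1.78 CPM in whole libraries, and 6.85, 7.64, 4.63 and 7.14 CPM in stromal-like cells. Egln3 and Ankrd37, which HIF also induces, had at most 12.7 CPM in whole libraries. In stromal-like cells Ndrg1 had 67.3 and 70.0 CPM in the cultures and 43.3 and 40.8 CPM without culture, a difference below the factor of 2. Among the 34 genes in stromal-like cells, Pdk1 and Slc2a1 were thus called higher in both pairs and Adm, Hif1a and Gapdh in the first, Hk2 was called lower in both pairs, Pfkm in the first and Aldoc in the second, and the other 26 were not called.

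Other genes of the same pathways, taken from 5 lists, were compared in whole libraries, where 4.19% of all genes were higher and 3.41% lower in the first pair, and 3.6% and 2.67% in the second. Of 24 other hypoxia-inducible genes tested, 3 were higher (12.5%) and 3 lower (12.5%) in the first pair, and 5 higher (20.8%) and 2 lower (8.33%) in the second. Bhlhe40, a transcriptional repressor induced in low oxygen and by many other stimuli, had 24.8, 5.99, 15.3 and 3.74 CPM. It reached 32.8 and 38.9 CPM in cultured stromal-like cells against 2.18 and 3.47 CPM without culture. Pgf, a growth factor related to Vegfa, had 18.5, 5.54, 30.8 and 3.17 CPM, and Loxl2, a collagen cross-linking enzyme, had 43.3, 217, 33.8 and 122 CPM. Bhlhe40 and Pgf were called higher and Loxl2 lower in both pairs. In stromal-like cells 21 genes of this list were tested, of which 4 were higher (19.0%, against 5.83% of all genes) and 1 lower (4.76%, against 7.18%) in the first pair, and 3 higher (14.3%, against 5.1%) and 1 lower (4.76%, against 4.54%) in the second. Their median log2 ratio there was 0.37 and 0.35, beside -0.17 and -0.01 for all genes. In germ-like cells none of 23 was higher, against 1.32% and 0.755% of all genes, and 2 and 3 were lower in the pairs (8.70% and 13%, against 3.09% and 2.24%), with medians of -0.08 and -0.09 beside -0.00 and -0.01. In Sertoli-like cells 2 and 3 of 18 were higher (11.1% and 16.7%, against 6.47% and 10.5%) and 2 lower in each pair (11.1%, against 5.94% and 6.5%), with medians of -0.17 and -0.14 beside -0.09 and 0.03. In Leydig-like cells 1 and 4 of 14 were higher (7.14% and 28.6%, against 5.86% and 7.55%) and 3 and 2 lower (21.4% and 14.3%, against 10.3% and 7.78%), with medians of -0.04 and -0.13 beside -0.07 and 0.07.

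In whole libraries none of 18 other glycolysis and transport genes tested was higher in either pair. There, 1 was lower in the first (5.56%, against 3.41% of all genes) and 2 in the second (11.1%, against 2.67%). In Sertoli-like cells 1 and 2 of 12 were higher in the pairs (8.33% and 16.7%, against 6.47% and 10.5%). Lower ones numbered 2 and 3 (16.7% and 25%, against 5.94% and 6.5%). In stromal-like cells 1 of 14 was higher in each pair (7.14%, against 5.83% and 5.1%) and 2 lower (14.3%, against 7.18% and 4.54%). In Leydig-like cells 1 of 7 was higher in the first pair (14.3%, against 5.86%) and 1 lower in each (14.3%, against 10.3% and 7.78%). In germ-like cells 1 of 15 was lower, in the second pair (6.67%, against 2.24%). Tigar, a phosphatase that slows glycolysis, had 11.6, 26.2, 11.1 and 26.2 CPM in whole libraries. Below the factor of 2 in whole libraries, the glycolytic activator Pfkfb3 had log2 ratios of -0.65 and -0.89, and the glucose transporter Slc2a8 of 0.61 and 0.59. Pyruvate entry and the citric acid cycle gave 1 higher gene among 17 in whole libraries of the first pair (5.88%, against 4.19%). It was Pdk4 (2.40 against 0.556 CPM, log2 ratio 1.13), and whole libraries of the second pair gave no call. In the first pair 1 of 16 was higher in germ-like and in Sertoli-like cells (6.25%, against 1.32% and 6.47%). In stromal-like cells 1 of 17 was higher in each pair (5.88%, against 5.83% and 5.1%). In Leydig-like cells 1 of 16 was lower, in the second pair (6.25%, against 7.78%). Mdh2 and Pdhb, of the cycle and of pyruvate dehydrogenase, had log2 ratios between -0.45 and -0.25 in whole libraries. In whole libraries none of the 7 HIF partners and regulators was called. The named ones, Cited2, Arnt2 and Hif1an, had ratios there between -0.63 and 0.59. In stromal-like cells 1 of 7 was lower in the first pair (14.3%, against 7.18%) and 1 higher in the second (14.3%, against 5.1%). In the second pair 1 of 6 was also higher in Sertoli-like cells (16.7%, against 10.5%) and 1 of 4 lower in Leydig-like cells (25%, against 7.78%). Testis-specific isozymes gave 1 call in whole libraries among 5 tested genes, Ldhc, lower in the second pair (20%, against 2.67%).

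Gapdh, Eno1, Pgk1, Pgam1, Aldoa and Ldha have near-identical copies or pseudogenes in the genome, and their levels are uncertain to that extent. Pfkm and Hif1a overlap another counted gene on the same strand, and Hk1, Hk2, Slc2a1, Gpi1, Tpi1, Gapdh, Bnip3, Ndrg1 and Adm are among those that overlap one on the opposite strand. Whether strand was used in counting is not given in the sources used here.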

How the data were processed

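Single-cell RNA was measured with 10x 3′ libraries in 4 samples, 1 library for each group. The deposited matrices hold whole UMI counts per gene and barcode, which the authors made with Cell Ranger 3.0.2 on the mouse build mm10, per the submitters' processing notes. The gene annotation and the use of strand are not given in the sources used here.

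From the counts, barcodes under 500 genes or over 20% mitochondrial UMIs were dropped, and doublets called with scanpy 1.11.5 (expected share 6%) were left out. A cell entered a class where the UMIs of that class's markers passed a set rate, and cells that passed for more than 1 class were left out. The rates were chosen after the markers' distributions were seen. Germ-like cells entered a stage with at least 3 UMIs from at least 3 of its markers and 2 times those of the next stage. UMIs were summed per class and library, scaled to CPM and compared as log2 ratios of CPM + 1, among genes with 50 or more UMIs in all. With 1 library per group no p-value was computed. CPM intervals are exact Poisson intervals and fold intervals exact conditional binomial intervals, both at 95% and for counting error only, since replicate error is unknown. The calculation of the ratios was checked on simulated counts. These held counting error only, with no other differences between libraries, so the check does not bear on the measured ratios. Python 3.11.15, numpy 2.4.6, pandas 2.3.3, scipy 1.17.1 and matplotlib 3.10.9 were used, and edgeR 4.0.16 in R 4.3.3 for TMM factors only.

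Members with a ratio of at least 2-fold in a whole library or class, and Hif1a and Epas1, are named with their values, as are up to 3 genes per pathway list with the same sign in both pairs and every testis-specific isozyme. Members and lists were chosen with earlier results of these data known. Positions are from GENCODE M21 on GRCm38. Alternatives varied the constant added, the UMI minimum, the scaling, the cell filter, doublets, the weighting of cells, the marker rule, free RNA and, in whole libraries, class shares.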

Additional observations from a re-analysis of the deposited data

Results flagged for a closer look

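Slc2a1 was called in opposite directions in 2 classes of the same pair. Its log2 ratio in the 7-day culture against 14 dpp was -1.17 in Sertoli-like cells and 1.06 in stromal-like cells, each from 1 library per group, so the difference between the classes was not tested. The stromal-like ratio fell below the factor of 2 with a stricter marker rule, with a stricter cell filter and with 10 added to CPM, and the Sertoli-like ratio with 10 added to CPM and with cells of more than 1 class assigned.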

How the results depend on the processing

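Of 49 ratios of at least 2-fold, 27 stayed past that fold in every alternative run for them, 22 did not, and 0 reversed. Of 116 recomputed counts of genes at least 2-fold apart, 102 stayed within 1.5 times. With 10 added to CPM the counts in the first pair were 1 in germ-like (3 with 1 added), 3 in Sertoli-like (5) and 3 in stromal-like cells (7), and in the second pair 1 in whole libraries (3), 1 in germ-like (3) and 1 in stromal-like cells (4). A larger constant lowers every ratio of low genes by construction. With 0.1 added, germ-like cells of the second pair gave 5. With cells weighted equally the first pair gave 2 in whole libraries (4) and 4 in stromal-like cells. Leydig-like cells gave 10 and 8 in the pairs with no UMI minimum, and 1 and 0 with a minimum of 200 UMIs, against 6 and 4, since other genes are then tested. Assigning mixed cells gave 5 in germ-like cells of the second pair, where the cause was not tested. This alternative and that of cells with at least 3000 UMIs were chosen after seeing the data. TMM factors moved the median of all genes by 0.11 in whole libraries and by 0.14 in stromal-like cells of the first pair. No paired analysis was possible because each group has 1 library.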
